A study of Mus musculus with 4 samples.

Results

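The cells described here are classical monocytes of mouse bone marrow that carried no UMI of the 2 proliferation genes Mki67 and Top2a. A UMI (unique molecular identifier) marks 1 captured RNA molecule. A cell was taken when the classical monocyte genes Ccr2, F13a1, Fn1 and Ms4a6c together had at least 15 UMIs. Camp and Ngp, neutrophil granule genes, had to stay under 0.5% of its UMIs, and Mpo, Elane, Prtn3 and Ctsg, genes of granulocyte and monocyte progenitors, under 1%. Cells with any Cd79a UMI (B cells), with 2 or more Cd209a UMIs (dendritic cells), or with both Ace and Adgre4 (nonclassical monocytes) were left out. So were cells with 10 or more UMIs of the interferon-induced genes Ifit1, Ifit2, Ifit3, Isg15, Rsad2 and Cxcl10. In all, 2999 of 31209 cells met these conditions: 602 of 7616 in B12+Butyrate, 707 of 8048 in B12, 702 of 6793 in Butyrate and 988 of 8752 in Control. The cells were thus selected on measured UMIs of these 22 genes, so that their level is a description and nothing is concluded from it.

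Classical monocytes are short-lived phagocytes that are made in the bone marrow from granulocyte and monocyte progenitors. They leave the marrow for the blood through the chemokine receptor CCR2, enter inflamed tissue and become macrophages or dendritic-type cells there, while a fraction turns into patrolling nonclassical monocytes. In the mouse they carry Ly6C at their surface. Loss of Tet2, a DNA demethylating enzyme that is often mutated in clonal haematopoiesis, is known to favour myeloid output and inflammatory gene expression in this lineage.

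The cells came from lethally irradiated mice that had received equal parts of CD45.1+ Tet2+/+ and CD45.2+ Tet2+/- marrow, and the CD45.2+ side was sequenced, so that the cells of all 4 groups descend from Tet2+/- donors. After 1 month of engraftment the mice were treated for 7 months. B12+Butyrate mice received 0.29 µg of vitamin B12 in intraperitoneal injections given 2 times a week, and 100 mM sodium butyrate in the drinking water. B12 mice received the same injections with 100 mM NaCl in the water, Butyrate mice received PBS injections with 100 mM sodium butyrate, and Control mice received PBS injections with 100 mM NaCl. For each group, frozen marrow of 3 mice was pooled, sorted for live CD45.2+ cells by Kit, recombined from equal numbers of Kit+ and Kit- cells and made into 1 10x Genomics 3' library. The sort sets part of every share of cells below, because mature monocytes are found mainly on the Kit- side. With 1 library per group there is no replicate, so no test of a condition was made. Intervals are 95% intervals that cover counting error only, and a gene is called past the fold at a ratio of 1.5 or more after adding 10 CPM (the gene's UMIs per 1000000 member UMIs of the library).

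The members held 6906192 UMIs in B12+Butyrate, 7620357 in B12, 7588319 in Butyrate and 11135316 in Control, with a median of 10650 to 11479.5 UMIs and 3325 to 3483.5 genes per cell. The median mitochondrial share was 2.03% in B12+Butyrate, 1.74% in B12, 2.14% in Butyrate and 1.78% in Control, higher in both butyrate libraries. Libraries shared 13 to 30 cell barcodes in pairs, and no member's barcode was shared. A doublet caller marked 4, 11, 13 and 19 members of B12+Butyrate, B12, Butyrate and Control, and these were kept except where stated.

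Non-cycling classical monocytes made up a smaller share of the cells in the libraries with B12. They were 7.90% of cells (exact binomial interval 7.31 to 8.53%) in B12+Butyrate, 8.78% (8.18 to 9.42%) in B12, 10.3% (9.62 to 11.1%) in Butyrate and 11.3% (10.6 to 12%) in Control. The share in B12 was 0.778 times that in Control (0.710 to 0.853), and the share in B12+Butyrate was 0.765 times that in Butyrate (0.689 to 0.849). For butyrate the ratios lay nearer to 1, at 0.915 (0.835 to 1.00) for Butyrate over Control and 0.900 (0.811 to 0.998) for B12+Butyrate over B12. How far animals differ within a group cannot be seen in these pooled libraries. With the selection limit at 60 UMIs, chosen after seeing the data, the log2 ratio of the share in B12+Butyrate to that in B12 was 0.11 in place of -0.15, and that of B12+Butyrate to Butyrate was -0.14 in place of -0.39. For B12 against Control it was -0.41 in place of -0.36. Neutrophil precursors (cells at or above the Camp and Ngp limit with at most 1 selection UMI) were 50.2%, 49.6%, 37.8% and 36.0% of cells in B12+Butyrate, B12, Butyrate and Control, higher in both B12 libraries. Since shares add up to the whole, a smaller share of monocytes cannot be told apart from a larger number of other cells.

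**Figure D1:**
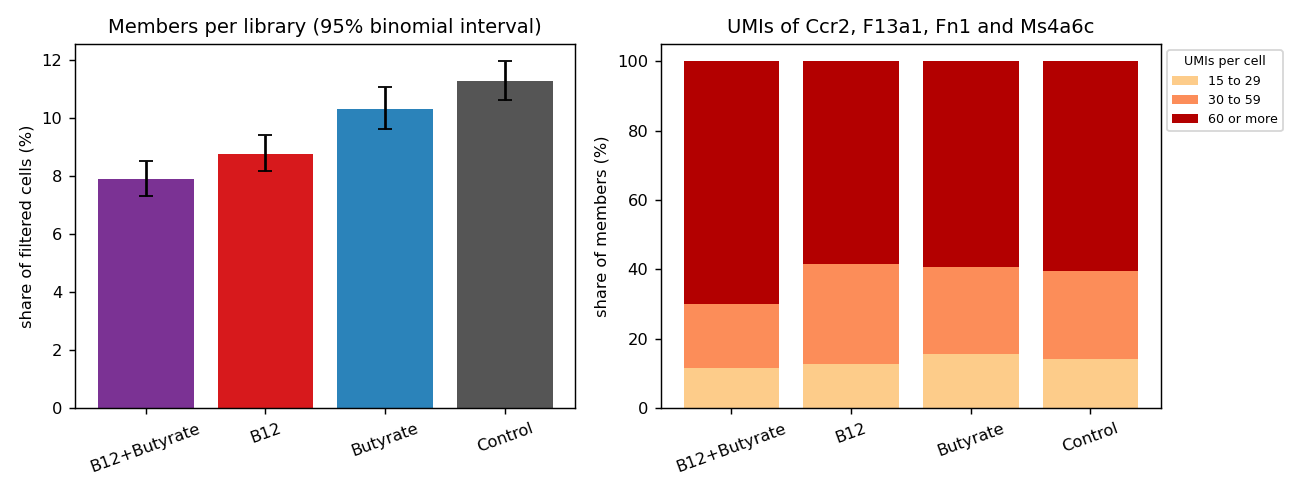
Left, members as a percentage of filtered cells in each library, with 95% binomial intervals. Right, members split by the UMIs of Ccr2, F13a1, Fn1 and Ms4a6c per cell. The share falls between 7.90% in B12+Butyrate and 11.3% in Control, and the band at 60 UMIs or more holds 70.1% of members in B12+Butyrate against 58.6% to 60.5% in the other libraries.

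Markers of classical monocytes outside the selection were well above their level in B cells. Vcan, which encodes the proteoglycan versican, and Ly6c2, which encodes Ly6C, were not used in the selection. Vcan was at 194 (184 to 205), 438 (423 to 453), 182 (173 to 192) and 363 (352 to 375) CPM in B12+Butyrate, B12, Butyrate and Control, against 0 to 1.84 CPM in B cells of the same libraries. Ly6c2 was at 1455, 1036, 1499 and 1109 CPM, against 25.4 to 57.0 CPM in B cells, and Lyz2, the lysozyme of monocytes and macrophages, at 23106, 19362, 19843 and 18854 CPM. The 4 marker genes given for the cells (Fn1, Vcan, Ccr2 and Ly6c2) summed to 4597 to 5101 CPM, most of it from Fn1 and Ccr2, which the selection used. Sums over the marker lists of other lineages differed widely. The neutrophil (Camp, Ngp), nonclassical monocyte (Ace, Adgre4), conventional dendritic cell (Cd209a) and B cell (Cd79a) lists also hold selection genes. Their sums are thus partly set by the selection. The neutrophil list summed to 855 to 2731 CPM, the plasmacytoid dendritic cell list to 278 to 407 CPM, the nonclassical monocyte list to 267 to 287 CPM and the macrophage list to 219.9 to 251 CPM. The granulocyte-monocyte progenitor list, which holds selection genes, summed to 134 to 293 CPM, the B cell list to 157 to 209 CPM, the conventional dendritic cell list to 96.0 to 136 CPM and the NK cell list to 9.85 to 23.7 CPM. The 6 T cell markers summed to 3.48 to 20.2 CPM, the 5 basophil or mast cell markers to 1.57 to 2.64 CPM, the 6 erythroid markers to 4.22 to 16.5 CPM and the 5 stem or multipotent progenitor markers to 36.1 to 46.9 CPM.

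A minority near the selection limit looked less like monocytes. Cells with 15 to 29 selection UMIs made up 11.6% of members in B12+Butyrate, 12.7% in B12, 15.7% in Butyrate and 14.3% in Control. In this band H2-Aa, an MHC class II gene of antigen-presenting cells, was at 3596, 4307, 3592 and 2677 CPM in B12+Butyrate, B12, Butyrate and Control. In cells with 60 or more selection UMIs it was at 154, 149, 163 and 126 CPM. Clec9a, a receptor of conventional dendritic cells, was at 124, 91.1, 138 and 79.4 CPM in the low band and at 0.195 to 4.11 CPM in the high one. Ly6c2 ran the other way, at 361, 281, 301 and 380.4 CPM in the low band against 1600.4, 1201, 1777 and 1271 CPM in the high band. The low band therefore holds cells that carry dendritic cell genes, and the 6 conventional dendritic cell markers summed to 343 to 574 CPM in it against 55.4 to 65.3 CPM in the high band. Just inside the limit, at 15 to 19 UMIs (29, 35, 43 and 43 cells), H2-Aa was at 3556, 2747, 4578 and 2829.8 CPM. Just outside it, at 10 to 14 UMIs (33, 40, 60 and 60 cells), it was at 5469.9, 1569, 3024 and 4013 CPM, so the limit does not fall at a break in this gene.

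**Figure D2:**
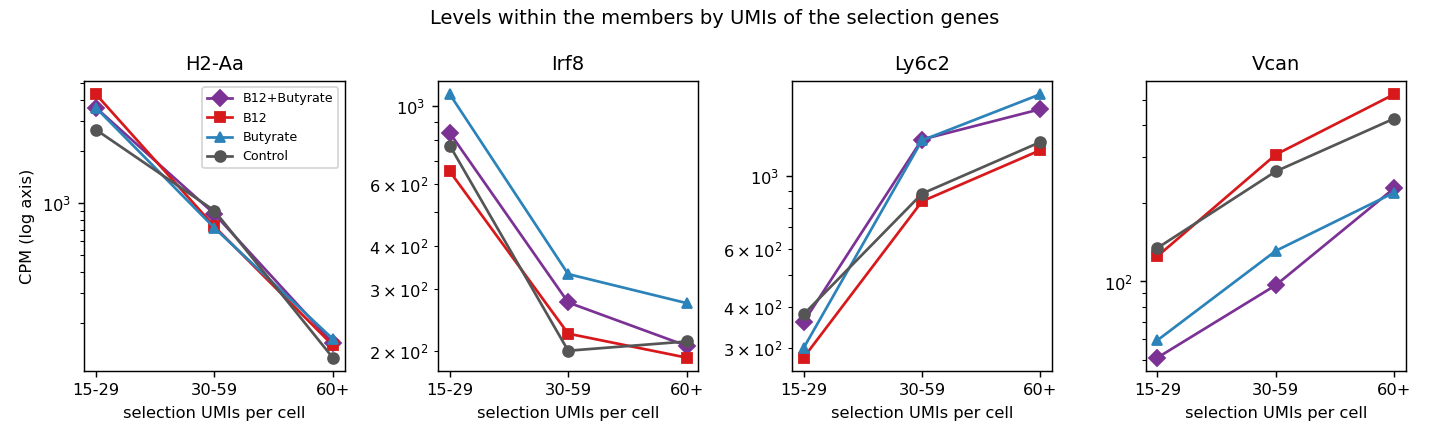
Level in CPM (log axis) of H2-Aa, Irf8, Ly6c2 and Vcan in members split by the UMIs of the 4 selection genes per cell, for each library. H2-Aa and Irf8 are high in the 15 to 29 band and Ly6c2 and Vcan low. In every band Vcan is lower in the butyrate libraries, at 51 and 59.5 CPM in B12+Butyrate and Butyrate against 125 and 135 CPM in B12 and Control in the 15 to 29 band.

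Neighbouring monocyte classes were cut from the same cells by the same genes, so the differences from them are descriptions with no test. Cells that met every condition but had an Mki67 or Top2a UMI (the cycling class) numbered 480, 712, 635 and 1047 in B12+Butyrate, B12, Butyrate and Control. They were 44.4%, 50.2%, 47.5% and 51.4% of both classes together. Apoe, the lipid carrier apolipoprotein E, averaged 827 CPM over the 4 libraries in the non-cycling cells and 89.2 CPM in the cycling class. Slfn5, a Schlafen family gene, averaged 238 against 43.8 CPM, and Clec4a1, a C-type lectin receptor, 203 against 47.4 CPM. The mitotic kinase gene Cdk1 averaged 1.10 against 128 CPM, and Stmn1, which encodes the microtubule regulator stathmin, 45.3 against 827 CPM. Few cells failed the limits on Ace and Adgre4 alone (33, 22, 29 and 50), or the interferon limit alone (29, 27, 38 and 38). The members had more Ly6c2 (1275 CPM on average, against 443 CPM in the nonclassical cells) and less Cd74, the MHC class II invariant chain (1243 CPM, against 3590.0 CPM in the nonclassical cells).

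The 2 butyrate comparisons, Butyrate against Control and B12+Butyrate against B12, share no library. Among 7893 genes with a mean of at least 10 CPM, 57 (0.722%) were past 1.5-fold higher and 59 (0.747%) lower in Butyrate against Control. In B12+Butyrate against B12, 17 (0.215%) were higher and 64 (0.811%) lower. Lower in both were 36 genes (0.456%), which is 61.0% of the 59 and 56.3% of the 64, and higher in both were 6 (0.076%), which is 10.5% of the 57 and 35.3% of the 17. Of the 36, Elane and Prtn3 belong to the selection genes and 6 others to the neutrophil marker list, which leaves 28. The median log2 ratio over all 7893 genes was 0.00 in both comparisons.

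Vcan, a matrix proteoglycan gene, was among the genes lower in both butyrate comparisons. The adhesion and matrix list to which it belongs (16 measured) had medians of -0.07 and 0.03. Vcan had a log2 ratio of -0.96 for Butyrate against Control and -1.13 for B12+Butyrate against B12. Both butyrate libraries lay below both libraries without butyrate, as they did in each band of selection UMIs, and the ratio moved only between -0.99 and -0.86 and between -1.17 and -1.09 under the other settings run. Vcan was detected in 46.2% (42.1 to 50.3%), 70.2% (66.6 to 73.5%), 44.3% (40.6 to 48.1%) and 66.9% (63.9 to 69.8%) of members of B12+Butyrate, B12, Butyrate and Control. With every cell thinned to 3000 UMIs, which left out 9, 10, 16 and 15 shallower members, these shares were 29.8%, 54.2%, 29.3% and 47.7%, against 0 to 0.612% of thinned B cells. B cells had medians of 5155 to 5431 UMIs. In the cycling class, which the selection kept apart, Vcan was likewise lower in both butyrate libraries than in both others, at 45.3 and 52.9 CPM in B12+Butyrate and Butyrate against 164 and 189 CPM in B12 and Control.

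Gcnt2, a glycosyltransferase that builds branched I-antigen sugar chains, was at 28.8 (25 to 33.1), 87.5 (81.0 to 94.4), 31.1 (27.3 to 35.3) and 87.2 (81.8 to 92.9) CPM in B12+Butyrate, B12, Butyrate and Control. Its log2 ratios were -1.24 for Butyrate against Control and -1.33 for B12+Butyrate against B12. It was detected in 18.4%, 42.6%, 18.5% and 46.3% of members, and in 7.08%, 19.5%, 6.41% and 22.3% after thinning, against 0.282% to 2.54% of thinned B cells. In the cycling class the libraries did not separate in this way, at 31.7, 32.2, 29.5 and 39.6 CPM.

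Pla2g7, the phospholipase that degrades platelet-activating factor, was at 52.1, 98.4, 39.3 and 92.9 CPM, with log2 ratios of -1.06 for Butyrate against Control and -0.80 for B12+Butyrate against B12. Ier3, an immediate early gene, was at 41.8, 97.8, 38.5 and 82.9 CPM, and Lilrb4b, an inhibitory immunoglobulin-like receptor with a near-identical neighbour that could share its reads, at 41.1, 84.0, 37.8 and 81.2 CPM. Cd244a, a receptor of the SLAM family, was at 46.9, 84.4, 39.3 and 81.0 CPM, and the unnamed gene Gm56663 at 244, 483, 209 and 391 CPM. For each of these 5 genes both butyrate libraries lay below both others, and the top 1% of members held no more than 18.5% of the UMIs in any library. The lists added Wfdc17, a small protease inhibitor of myeloid cells, at 757, 1246, 739 and 1156 CPM. C5ar1, the receptor for the complement fragment C5a, was at 9.70, 22.4, 7.64 and 19.6 CPM, and Ccl4, a chemokine, at 13.6, 50.9, 10.4 and 49.9 CPM. Of the C5ar1 and Ccl4 UMIs, the top 1% of members held 23.9% to 29.3% and 37.8% to 62.8%.

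Among genes at a mean of 50 CPM or more, the largest ratios belonged to neutrophil genes, and for some of them a few cells decided the value. Retnlg, a resistin-like gene of neutrophils, was at 18.7, 188, 6.46 and 109.9 CPM in B12+Butyrate, B12, Butyrate and Control, and the top 1% of members held 71.4% to 90.3% of these UMIs. Only 5.98%, 6.93%, 2.99% and 7.59% of members had a Retnlg UMI, and 1.69%, 3.01%, 1.17% and 2.77% after thinning. That is below the 3.67% to 4.24% of thinned B cells, which should lack it, and the source of these UMIs was not tested. Without the called doublets its log2 ratio was -0.77 in place of -2.87 for Butyrate against Control and -1.18 in place of -2.79 for B12+Butyrate against B12. S100a8, a subunit of calprotectin, was at 308, 861, 290.2 and 1060.0 CPM in members and at 709, 1060.5, 831 and 1537 CPM in B cells, so it was lower with butyrate there as well. Its log2 ratio for B12+Butyrate against B12 was -1.45, and -0.86 without called doublets. S100a9, the other subunit, was at 307, 959, 299 and 993 CPM, and its ratios of -1.70 and -1.61 were -0.90 and -0.68 without called doublets. After thinning, S100a9 was found in 47.9%, 56.1%, 48.3% and 62.6% of members and in 55.9%, 65.3%, 57.8% and 64.0% of B cells. Its detection thus does not set members apart from B cells, and how much of it is the members' own RNA was not tested.

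Wfdc21, a protease inhibitor, was at 14, 95.4, 15.9 and 124 CPM, and the top 1% of members held 19.3% to 36.4% of these UMIs. Lcn2, the iron-binding protein lipocalin 2, was at 42.4, 97.5, 40.3 and 144 CPM. All 11 neutrophil markers together summed to 893, 2501, 855 and 2731 CPM in members and to 2132, 3256, 2301 and 4448 CPM in B cells. The sum was thus lower in both butyrate libraries in both cell types. In members S100a8 and S100a9 were the largest of the 11 in every library. Cxcr2 and Ly6g lay under the floor of 10 CPM in every library, so neither could be called. Of the 9 others, 6 were past 1.5-fold lower in both butyrate comparisons, beside 0.456% of all genes. Camp and Ngp, which the selection limits, were not: Camp had log2 ratios of -0.25 and -0.26, and Ngp -0.24 and -0.43. For Ltf they were -0.13 and 0.03. The part of neutrophil RNA in these sums and in the differences of single genes was not tested. Vcan, Pla2g7 and Cd244a were at or below 2.25 CPM in the neutrophil precursors of every library, while Gcnt2 was at 41.5 to 48.7 CPM, Ier3 at 68.8 to 89.4 CPM and Lilrb4b at 117 to 152 CPM in them.

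**Figure D3:**
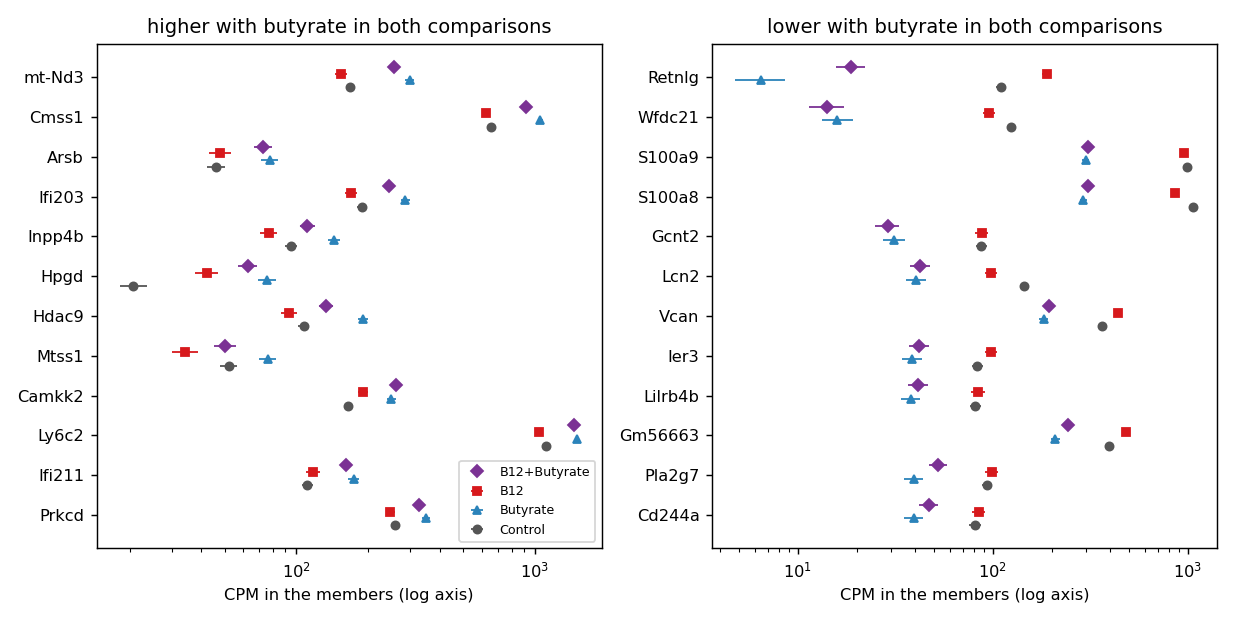
Level in CPM (log axis) with exact 95% Poisson intervals of the 12 genes per direction with the largest smaller log2 ratio over both butyrate comparisons, per library. On the left both butyrate libraries lie above the others, except that Mtss1 in B12+Butyrate (50.4 CPM) lies below Control (52.2 CPM). On the right they lie below, with Vcan at 194 and 182 CPM against 438 and 363 CPM.

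The 6 genes past the fold higher in both butyrate comparisons were Itga8, Upb1, Gm36723, Fhit, Racgap1 and mt-Nd3. Itga8, an integrin subunit, was at 41.4, 18.1, 45.6 and 15.3 CPM in B12+Butyrate, B12, Butyrate and Control, with log2 ratios of 1.14 for Butyrate against Control and 0.87 for B12+Butyrate against B12. Racgap1, a regulator of cell division, was at 40.8, 19.3, 43.4 and 25.3 CPM. Upb1, Gm36723 and Fhit were lower, at 3.54 to 30 CPM over the libraries. Only 2 of the 6 genes had under 25% of their UMIs in the top 1% of members in every library. For the others a few cells held much of the value in at least 1 library. The number of genes higher in both comparisons ranged from 1 to 19 over the settings run.

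The monocyte gene Ly6c2 was higher with butyrate but not past the fold. Ly6c2 had log2 ratios of 0.43 for Butyrate against Control and 0.49 for B12+Butyrate against B12, under the 1.5-fold limit, with both butyrate libraries above both others. Ly6c2 was detected in 92.7%, 88.8%, 89.3% and 91.3% of members of B12+Butyrate, B12, Butyrate and Control, so detection was lower in Butyrate than in Control. After thinning, Ly6c2 was found in 86.8%, 76.9%, 83.8% and 82.8%. In the cycling class it was at 1745, 1618, 1587 and 1511 CPM, where the libraries lay close together, and in the 15 to 29 band Control was the highest. Ly6c2 and Vcan, both classical monocyte genes outside the selection, thus differed in opposite directions. Camkk2, a calcium-dependent kinase, was at 260.3, 190.4, 250 and 165 CPM, and Prkcd, protein kinase C delta, at 326, 248, 349 and 259.7 CPM, and neither was past the fold in either comparison.

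Hpgd, the dehydrogenase that inactivates prostaglandin E2, had the largest ratio among the genes higher in Butyrate against Control at 50 CPM or more by mean. It was at 62.4 (56.7 to 68.6), 42.1 (37.6 to 47.0), 75.4 (69.3 to 81.8) and 20.7 (18.2 to 23.6) CPM in B12+Butyrate, B12, Butyrate and Control. The log2 ratio was 1.47 for Butyrate against Control, 0.47 for B12+Butyrate against B12 and 0.76 for B12 against Control, so all 3 treated libraries lay above Control. Hpgd was found in 20.4% (17.3 to 23.9%), 14.4% (11.9 to 17.2%), 21.7% (18.7 to 24.9%) and 7.39% (5.84 to 9.20%) of members, and in 10.8%, 7.89%, 12.7% and 3.70% after thinning, against no thinned B cell. The top 1% of members held 16.0%, 22.4%, 21.9% and 45.0% of its UMIs. In the cycling class it was at 7.92, 2.97, 8.17 and 2.27 CPM.

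Some of the genes higher with butyrate were higher in other cells too. The mitochondrial gene mt-Nd3, a subunit of respiratory complex I, was at 255, 153, 298 and 169 CPM in members, at 369, 247, 403 and 229.6 CPM in B cells and at 81.0, 50.8, 99.7 and 60.4 CPM in neutrophil precursors. Cmss1 was at 914, 626, 1053 and 656 CPM in members and at 745, 645, 844 and 609 CPM in B cells. The median mitochondrial share of UMIs, given above, moved with butyrate in the same way, and its part was not tested. Hdac9, a class II histone deacetylase, was at 133, 93.0, 190.2 and 107 CPM in members, and in the 15 to 29 band at 455, 409, 661 and 406 CPM. Its log2 ratio for Butyrate against Control was 0.77, but 0.55 after thinning and 0.51 with a selection limit of 0.15% of each cell's UMIs. Fmnl2, an actin regulator, had a log2 ratio of 0.84 in Butyrate against Control, which was 0.12 in cells with 60 or more selection UMIs.

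**Figure D4:**
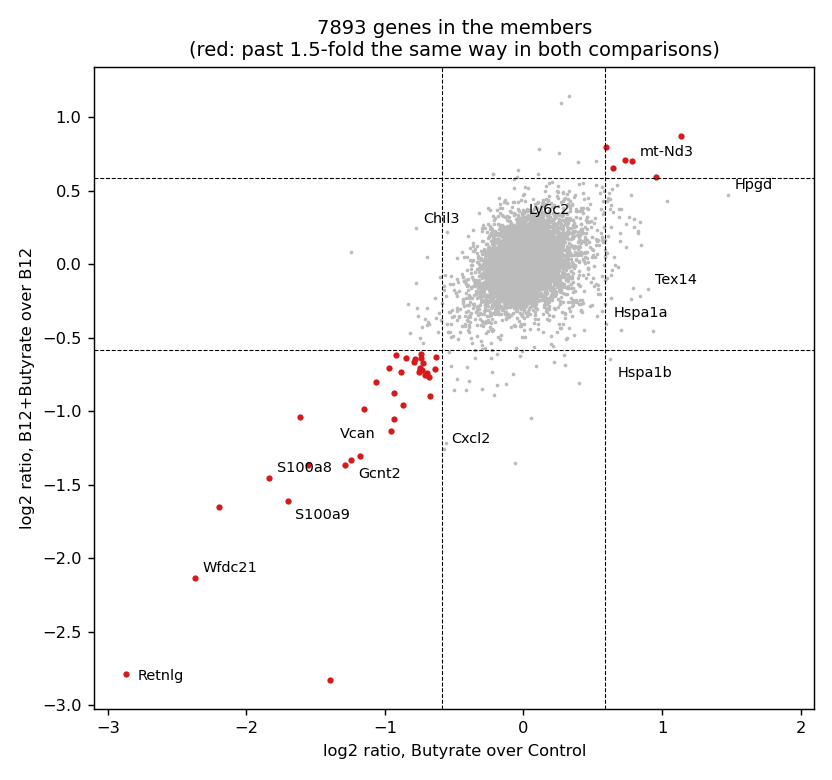
Log2 ratio of 7893 genes in members for Butyrate over Control (horizontal) and B12+Butyrate over B12 (vertical), with dashed lines at 1.5-fold. Red marks the 36 genes lower and 6 genes higher in both, with Retnlg at -2.87 and -2.79 and Vcan at -0.96 and -1.13. Hspa1b lies at 0.62 and -0.64.

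Interferon-induced genes other than the 6 used in the selection tended to be higher in Butyrate. Because cells with 10 or more UMIs of those 6 were left out, strong responders are not among the members. Over 45 measured genes the median log2 ratio was 0.27 for Butyrate against Control, with 37 positive and 6 past 1.5-fold higher (0.722% of all genes were). For B12+Butyrate against B12 it was 0.11, with 37 positive and none past the fold in either direction. For B12 the medians were 0.04 against Control and -0.05 for B12+Butyrate against Butyrate. A positive ratio in both butyrate comparisons was found for 34 of the 45 genes, and for 29.9% of all 7893 genes. With the interferon limit and the other settings varied, the Butyrate against Control median stayed between 0.25 and 0.32.

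The promoters of 3 of these genes are shown as examples from the Ifi200 cluster of interferon-inducible genes. They had positive ratios in both butyrate comparisons, and only promoter entries that hold the motif below were kept for display. Ifi204 (0.28 and 0.15) and Ifi209 (0.20 and 0.09) of the same cluster were also positive for Butyrate against Control and B12+Butyrate against B12, and are not shown. Ifi203 was past the fold in neither comparison, and Ifi211 and Ifi213 only in Butyrate against Control. The window runs from 250 bases before to 50 bases after the annotated start (RefSeq, build GRCm38.p6), and capitals mark GAAA, any 2 bases and GAAA again, the core of an interferon-stimulated response element, searched on both strands (TTTC, any 2 bases and TTTC on the other).
Ifi203, chr1:173942443-173942742, minus strand: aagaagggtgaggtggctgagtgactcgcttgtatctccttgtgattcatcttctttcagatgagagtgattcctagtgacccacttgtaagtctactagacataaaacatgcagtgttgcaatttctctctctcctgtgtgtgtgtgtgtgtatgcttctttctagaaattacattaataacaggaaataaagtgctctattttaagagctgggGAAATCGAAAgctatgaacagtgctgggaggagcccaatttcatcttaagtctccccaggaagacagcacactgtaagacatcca
Ifi211, chr1:173912997-173913296, minus strand: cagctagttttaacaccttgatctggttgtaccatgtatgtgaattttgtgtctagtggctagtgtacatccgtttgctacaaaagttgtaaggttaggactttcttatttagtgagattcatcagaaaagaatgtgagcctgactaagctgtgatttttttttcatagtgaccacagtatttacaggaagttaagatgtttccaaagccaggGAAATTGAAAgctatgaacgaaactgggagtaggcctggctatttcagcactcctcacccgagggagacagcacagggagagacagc
Ifi213, chr1:173599223-173599522, minus strand: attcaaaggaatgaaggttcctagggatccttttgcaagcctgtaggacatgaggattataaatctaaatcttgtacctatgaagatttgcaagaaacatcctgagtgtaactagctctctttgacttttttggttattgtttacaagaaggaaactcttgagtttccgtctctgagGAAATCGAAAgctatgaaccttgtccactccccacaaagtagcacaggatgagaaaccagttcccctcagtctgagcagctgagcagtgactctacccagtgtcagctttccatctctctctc
The motif begins 35, 37 and 73 bases before the start in Ifi203, Ifi211 and Ifi213. It occurs in 3.44% of all 32851 promoter entries and in 19 of the 38 entries found for 32 of the 45 interferon genes. A match is a description of the letters and not evidence of binding.

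Ifi203 was at 244 (232 to 256), 169 (160.3 to 179), 287 (275 to 299) and 188 (180.3 to 197) CPM in B12+Butyrate, B12, Butyrate and Control, with log2 ratios of 0.58 and 0.50 in the butyrate comparisons without and with B12. Ifi211 was at 161 (152 to 171), 117 (109.8 to 125), 174 (165 to 184) and 111 (105 to 118) CPM. It was detected in 65.8%, 52.1%, 66.7% and 53.2% of members, and in 33.9%, 23.4%, 35.6% and 24.4% after thinning, against 0.153% to 1.69% of thinned B cells. Ifi213 was at 29.7, 24.3, 36.8 and 16.4 CPM, with a ratio of 0.82 for Butyrate against Control and 0.21 for B12+Butyrate against B12. For all 3 genes both butyrate libraries lay above both others, though for Ifi213 the intervals of B12+Butyrate (25.8 to 34.0) and B12 (20.9 to 28.0) overlapped. In B cells Ifi203 was at 253, 268, 225 and 263 CPM, where Butyrate was the lowest. Related genes of this family could share reads.

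Ifi27l2a, a small interferon-induced mitochondrial membrane protein, was at 1313, 1046, 1552 and 913 CPM in B12+Butyrate, B12, Butyrate and Control, with log2 ratios of 0.76 for Butyrate against Control and 0.33 for B12+Butyrate against B12. B cells held 189, 249.6, 193 and 189 CPM of it. Irf7, the transcription factor that amplifies the interferon response, was at 42.7, 30.6, 58.4 and 32.5 CPM, and Oasl2, an oligoadenylate synthetase-like antiviral gene, at 47.6, 38.3, 56.7 and 28.4 CPM. The antiviral GTPase gene Mx1 was at 41.4, 39.4, 53.1 and 32.0 CPM. Butyrate was the highest library for each of these 4 genes. Ifitm2, a membrane protein that hinders viral entry, was the lowest of the list in Butyrate against Control, at -0.47.

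The antimicrobial and alarmin list (16 measured) had a median log2 ratio of -0.30 for Butyrate against Control, with 6 genes past 1.5-fold lower (0.747% of all genes were), and -0.26 for B12+Butyrate against B12, with 5 (0.811% of all genes). All but 1 of the 6 were S100a8, S100a9, Lcn2, Wfdc21 and Wfdc17, the sixth being Chil3. S100a8, S100a9, Lcn2 and Wfdc21 are also neutrophil markers, whose sums are given above, and the part of neutrophil RNA in this list was not tested. The chemoattractant receptor list (7 measured) had medians of -0.33 and -0.11, with C5ar1 past the fold in both. Cx3cr1, the fractalkine receptor that is high on nonclassical monocytes, was at 266, 226, 282 and 234 CPM.

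Of 17 classical monocyte genes outside the selection, 4 were past 1.5-fold lower in Butyrate against Control (Vcan, Chil3, Cd14 and Gda) and none higher, beside 0.747% of all genes lower. In B12+Butyrate against B12 there were 2 lower (Vcan and Thbs1) and none higher, beside 0.811% of all genes lower. Cd14, the co-receptor for bacterial lipopolysaccharide, was at 21.1, 29.8, 18.8 and 38.8 CPM, and Gda, guanine deaminase, at 497, 654, 411 and 669 CPM. S100a4, Plac8 and Csf1r, the receptor for the monocyte growth factor CSF1, differed little. Csf1r was at 219, 225, 201 and 211 CPM. The list medians were -0.15 and -0.04 in the butyrate comparisons and 0.02 and 0.09 in the B12 comparisons, beside medians of all genes between -0.01 and 0.00.

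The 2 B12 comparisons, B12 against Control and B12+Butyrate against Butyrate, likewise share no library. In B12 against Control 26 genes (0.329%) were past 1.5-fold higher and 10 (0.127%) lower. In B12+Butyrate against Butyrate 8 (0.101%) were higher and 30 (0.38%) lower. Past the fold in both were 1 higher gene (0.0127%), Retnlg, and 3 lower genes (0.038%), 1700001K19Rik, Fhit and Gm47283. The Retnlg value rested on few cells: for B12 against Control its log2 ratio was 0.73, and -0.19 in cells with 60 or more selection UMIs. Gm47283, an unnamed gene, was at 45.2, 42.1, 91.7 and 94.0 CPM in B12+Butyrate, B12, Butyrate and Control, but at 118, 110.3, 118 and 134 CPM in B cells.

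The next largest differences in favour of B12 were histone genes. H2ac6 was at 156 (147 to 165), 157 (148 to 166), 106 (98.9 to 114) and 85.6 (80.2 to 91.2) CPM in B12+Butyrate, B12, Butyrate and Control. H3c4 was at 74.7, 87.5, 51.8 and 43.3 CPM, and H2bc4 at 181, 189, 114 and 127 CPM. For H2ac6 the log2 ratio was 0.80 in B12 against Control and 0.51 in B12+Butyrate against Butyrate, for H3c4 0.87 and 0.46, and for H2bc4 0.54 and 0.62. In all 3 both B12 libraries lay above both others. The same held in B cells, with H2ac6 at 91.1, 122, 44.5 and 34.9 CPM. Histone genes form families of near-identical copies, so that the split of reads among them is uncertain. The members carry no Mki67 or Top2a UMI because the selection required it. Of 19 listed S phase genes, 9 were measured, with medians of 0.09 and 0.03 in the B12 comparisons. Of these, 7 and 6 were positive, beside 46.8% and 49.2% of all genes. The part of the cell cycle in the histone differences was not tested. Gadd45b, a stress-induced gene linked to DNA demethylation, was at 171, 181, 135 and 114 CPM.

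Heat shock genes were mostly higher in B12 and in Butyrate than in Control. Of 11 measured, 10 had a positive log2 ratio in B12 against Control (median 0.34) and 11 in Butyrate against Control (median 0.53), whereas none had one in B12+Butyrate against Butyrate (median -0.18) or against B12 (median -0.20). Over all genes 46.8%, 49.7%, 49.2% and 50.6% were positive in these comparisons, in the same order. Hspa1b, an inducible HSP70 gene, was at 813 (792 to 835), 1276 (1251 to 1302), 926 (904 to 948) and 597 (583 to 612) CPM. Its near-identical neighbour Hspa1a, with which it may share reads, was at 791, 1053, 869.6 and 572 CPM. Hspa1b was also lowest in Control in B cells, at 811, 1127, 922 and 734 CPM. Tnf, the inflammatory cytokine, was likewise lowest in Control, at 117, 113, 115 and 69.2 CPM, with log2 ratios of 0.63 for B12 against Control and 0.65 for Butyrate against Control. It was the highest of the 12 measured cytokine and chemokine genes in both, and the medians of that list were 0.03 and -0.17. The lowest were Ccl5 at -1.09 for B12 against Control and Ccl4 at -1.55 for Butyrate against Control, both past the fold. Tex14 was at 296, 334, 381 and 200.3 CPM.

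Chil3, a chitinase-like protein made by monocytes and neutrophil precursors, was highest in Control. It was at 804 (783 to 826), 678 (659 to 696), 691 (672 to 709.9) and 1193 (1172 to 1213) CPM in B12+Butyrate, B12, Butyrate and Control. The log2 ratio was -0.81 for B12 against Control and -0.78 for Butyrate against Control, but 0.22 for B12+Butyrate against Butyrate and 0.24 for B12+Butyrate against B12. Neutrophil precursors held 6036, 5382, 6169 and 5419 CPM of Chil3, where Control was not the highest. Rilpl2 was at 85.6, 51.2, 89.7 and 92.5 CPM, lowest in B12, and Rabepk, which encodes a Rab9 effector, at 43.9, 84.4, 65.4 and 47.0 CPM, highest in B12. Apoe was at 741, 1146, 703 and 717 CPM, with a log2 ratio of 0.67 for B12 against Control and 0.07 for B12+Butyrate against Butyrate. The macrophage markers C1qa, C1qb and C1qc had ratios of 0.70, 0.64 and 0.69 for B12 against Control, and Adgre1 -0.04. The macrophage list summed to 373, 814, 502 and 329 CPM in the band of 15 to 29 selection UMIs. At 60 or more it summed to 224, 185, 186 and 200 CPM. The part of macrophage RNA in the Apoe value was not tested.

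The cytokine and chemokine list (12 measured) had medians of -0.03 for B12+Butyrate against Butyrate and -0.01 for B12+Butyrate against B12, and its members differed in direction. Cxcl2, a chemokine that draws neutrophils, was at 34.0 (29.8 to 38.7), 95 (88.2 to 102), 75.2 (69.2 to 81.7) and 117 (110.3 to 123) CPM in B12+Butyrate, B12, Butyrate and Control. Its log2 ratio was -0.95 for B12+Butyrate against Butyrate and -1.25 for B12+Butyrate against B12, and the top 1% of members held 21.8% to 39.6% of its UMIs. Tnfaip3, which encodes the NF-kB inhibitor A20, was at 63.9, 85.0, 118 and 94.4 CPM. Ccl2, the ligand of CCR2, was at 55.5, 80.0, 77.1 and 104 CPM. Ccl3 was at 53.6, 54.6, 89.9 and 62.2 CPM, highest in Butyrate. Ccl6, another chemokine, was at 814, 812, 699 and 762 CPM. Lpl, lipoprotein lipase, was highest in B12+Butyrate, at 153, 98.2, 110.2 and 114 CPM.

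The MHC class II list (9 measured) had median log2 ratios of 0.16 for B12 against Control, -0.25 for B12+Butyrate against Butyrate, 0.35 for Butyrate against Control and -0.21 for B12+Butyrate against B12. In cells with 60 or more selection UMIs these were 0.17, -0.02, 0.21 and -0.01, and with a limit of 25 UMIs the Butyrate against Control median was -0.035. Runx2, a transcription factor that is high in plasmacytoid dendritic cells, was at 57.8, 82.3, 127 and 91.2 CPM in B12+Butyrate, B12, Butyrate and Control. Cells with 15 to 29 selection UMIs had 178, 318, 422 and 467 CPM of Runx2 and those with 60 or more 38.7, 47.9, 73.6 and 47.5 CPM. Irf8, a transcription factor of monocyte and dendritic cell fate, was at 268, 239, 383 and 262 CPM, and in the high band at 207, 192, 274 and 213 CPM. The 15 to 29 band was 11.6%, 12.7%, 15.7% and 14.3% of members in B12+Butyrate, B12, Butyrate and Control. The part of the band shares in these values was not tested beyond the split given here.

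**Figure D5:**
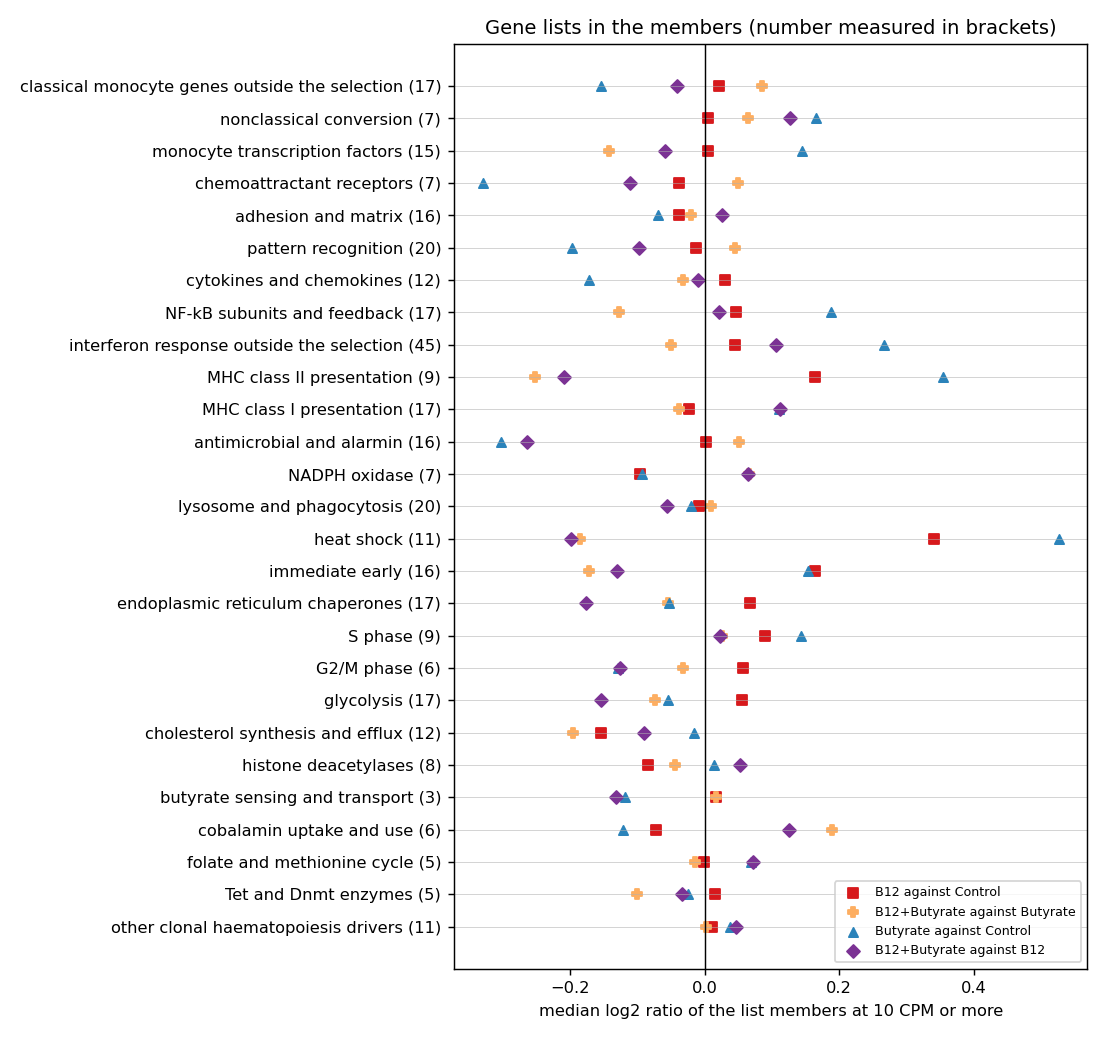
Median log2 ratio of the measured genes of 27 lists in members for the 4 comparisons, with the number measured in brackets. Heat shock lies at 0.34 and 0.53 in the comparisons with Control and at -0.18 and -0.20 in the others, and the interferon list at 0.27 in Butyrate against Control.

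For 22 of the 27 lists every median lay between -0.20 and 0.19. A median near 0 does not mean that no gene differed. Over the 4 comparisons these lists held 33 values of single genes past the fold, counted once per list. Of all genes, 0.101% to 0.811% were past it per comparison and direction. Among the 22 lists were some tied to the treatments. The cobalamin (vitamin B12) uptake and use list, with 6 measured genes, had medians between -0.12 and 0.19, with no gene past the fold. Mtr, the B12-dependent methionine synthase, had a log2 ratio of 0.16 in B12 against Control. The folate and methionine cycle list (5 measured) had medians between -0.02 and 0.07, the butyrate sensing and transport list (3 measured) between -0.13 and 0.02, and the histone deacetylase list (8 measured) between -0.08 and 0.05. In the last list Hdac9 was past the fold in Butyrate against Control, at 0.77. The 3 measured butyrate genes were Slc16a3, Bsg and Acads. The receptor genes Ffar2, Ffar3 and Hcar2 lay under the floor of 10 CPM, so nothing is said of them. The Tet and Dnmt list (5 measured) lay between -0.10 and 0.02. Lists of MHC class I, the NADPH oxidase, lysosome and phagocytosis, glycolysis and monocyte transcription factors had medians between -0.15 and 0.14. The immediate early list (16 measured) had medians of 0.16 for B12 and 0.15 for Butyrate against Control, with 14 positive in each. For B12+Butyrate against Butyrate and against B12 they were -0.17 and -0.13, with 3 and 5 positive. Over all genes 46.8%, 49.7%, 49.2% and 50.6% were positive in these comparisons, in the same order. Since genes are few and libraries single, small differences in these lists were not detectable.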

How the data were processed

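The files hold UMIs as raw counts, as deposited. Their headers name Cell Ranger 7.1.0, and the submitters' processing notes give GRCm39. The handling of introns was not given in these sources. A barcode was kept with 500 or more genes, 1000 or more UMIs and no more than 10% of UMIs from mitochondrial genes (31209 of 34670). Libraries held 95892397 to 123435815 UMIs.

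Member UMIs were summed per library, with Poisson intervals (CPM) and exact Clopper-Pearson intervals (shares). Log2 ratios used a pseudocount of 10 CPM and a mean floor of 10 CPM. Genes were named by rule: at a mean of 50 CPM or more, the 12 per direction for each treatment with the largest smaller ratio over its 2 comparisons, the 6 per direction for each comparison and for the difference of the butyrate differences, the 10 per direction for each neighbouring class, and any list member. Outside this rule, the genes past the fold higher in both butyrate comparisons, and those past it in both B12 comparisons, were named from a mean of 10 CPM. H2-Aa, Clec9a and the band split were singled out after their values were seen. B cells (at least 5 Cd79a UMIs, at most 1 selection UMI, Camp and Ngp under 0.5%) gave the background level. Doublets, called from simulated ones at 0.8% per 1000 cells with 50 neighbours and 30 principal components, were removed only as an alternative. The calculation was tested on simulated counts. Members and lists were chosen with earlier results of these data known. Tools were scikit-learn 1.9.0, pandas 2.3.3, scipy 1.17.1, numpy 2.4.6 and matplotlib 3.10.9 under Python 3.11.15. Of the genes in 27 programme and 13 marker lists, 2 were not matched in the files. No coordinates of GRCm39 were used.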

Additional observations from a re-analysis of the deposited data

Results flagged for a closer look

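Hspa1b, an inducible heat shock gene, differed in opposite directions in the 2 butyrate comparisons of non-cycling classical monocytes. Its log2 ratio was 0.62 for Butyrate against Control and -0.64 for B12+Butyrate against B12. The difference between these values was not tested, since each group is 1 library.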

How the results depend on the processing

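No paired analysis was possible because each group has 1 library, and leaving out a library would remove its whole group. Each result was recomputed under the other settings that apply to it, and the limit of 60 selection UMIs was chosen after seeing the data. With that limit the log2 ratio of the members' share was -0.14 for B12+Butyrate against Butyrate (main value -0.39) and 0.11 for B12+Butyrate against B12 (main value -0.15). The counts past 1.5-fold moved most with the settings that act on low values. With cells thinned to 3000 UMIs there were 45 higher and 38 lower in B12 against Control, 31 and 67 in B12+Butyrate against Butyrate, and 59 and 111 in B12+Butyrate against B12, with 4 higher and 5 lower in both B12 comparisons and 3 higher in both butyrate comparisons. With a pseudocount of 1 CPM these were 56 and 46, 28 and 75, and 68 and 113, with 121 and 103 in Butyrate against Control, 5 and 13 in both B12 comparisons and 19 higher in both butyrate comparisons. With a floor of 50 CPM they were 15 and 4 in B12 against Control, 2 and 9 in B12+Butyrate against Butyrate, 21 and 28 in Butyrate against Control and 4 and 30 in B12+Butyrate against B12, with 1 lower in both B12 comparisons and 1 higher and 19 lower in both butyrate comparisons. For B12+Butyrate against Butyrate, no floor gave 56 lower, a limit of 25 selection UMIs 4 higher, and a limit of 60 gave 5 higher and 14 lower. A limit of 10 gave 27 higher in B12+Butyrate against B12. In both B12 comparisons, 0 were higher at a limit of 25 and 2 at 60, 6 were lower with the selection at 0.15% of UMIs, 0 higher and 5 lower without called doublets, and 6 lower with the mean of each cell's CPM. In both butyrate comparisons 10 were higher at a limit of 60 and 3 with the mean of each cell's CPM. Retnlg in B12 against Control was -0.19 at a limit of 60, and the MHC class II median was -0.035 in Butyrate against Control at a limit of 25 and 0.10 in B12+Butyrate against B12 at a limit of 10. The cause of these moves was not tested. Of 65 values of named genes past the fold, 37 of 845 recomputed values fell under it or moved, over 19 results.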
